A study of Mus musculus with 12 samples.

Results

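Mitosis genes here are 41 genes of G2 and mitosis taken from a list by symbol. The rule uses no measured value, but the list was drawn up with earlier results of these data known. All 41 were among the 30265 gene symbols of the deposited table, and all 41 had enough reads to be tested, as did 16577 genes in all. They encode the cyclins and kinases that start mitosis, the spindle checkpoint and its target, kinetochore and chromosomal passenger proteins, mitotic kinesins, spindle and midzone proteins, and proteins of chromosome structure. The study sorted intestinal epithelial cells of C57Bl/6 mice by the brightness of a green fluorescent Sox9 reporter (Sox9-GFP) into 4 gates: High, Low, Sublow and Negative. Each population has 3 libraries with replicate letters A, B and C, and each library was made from the ribosomal-RNA-depleted total RNA of 12000 cells with a Clontech SMARTer kit and read from a single end. The labels name no treatment, and the groups compared are the gates. The sources used here do not give age, sex or the construct of the reporter.

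Entry into mitosis is driven by the cyclin-dependent kinase Cdk1 with its B-type cyclins. The spindle checkpoint then holds chromosome separation until kinetochores are attached, after which the anaphase-promoting complex (APC/C) marks cyclin B and the inhibitor of separase for destruction. Many of the genes are transcribed in late S phase and G2 through the MuvB complex with B-Myb and FoxM1, which acts at a short promoter element called the cell cycle genes homology region. In the intestinal epithelium, division is a property of crypt cells, the stem cells at the crypt base and the transit-amplifying progenitors above them, while villus enterocytes have left the cell cycle.

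The libraries held between 11.63 and 17.05 M reads, and a floor of 3 reads corresponded to between 2.38 and 4.61 units of the normalised read count. The lowest read count of any member in any library was 7, for Cdc25c. The epithelial label held in every gate: the lowest level of Epcam, an epithelial adhesion protein, was 13649 normalised reads in any library. The summed level of 12 leukocyte markers was between 2590.1 and 3953 in the High libraries and between 476 and 816 in all others. Ptprc, the common leukocyte antigen, made up most of it in High (mean 2469, against 89.2 in Low), and Cd3d was next with means between 345 and 512 over the gates. Cd79a, a B cell marker, had means of at most 6.60, and Cd3e, a T cell marker, of at most 16.2. The summed level of 10 stromal, vessel and muscle markers was between 737 and 1367 over all libraries, mostly Pecam1 (means 711 to 961) and Col1a2 (means 101 to 250.4), while Col3a1, Dcn and Des had means of at most 4.59. Markers of the epithelial lineages differed by gate. The sum of 5 goblet cell markers was high in Low (mean 260068) and Sublow (489812) and lower in Negative (83216) and High (8672), without overlap between the libraries of the first and the last pair, as for the mitosis genes. The sum of 5 enteroendocrine markers averaged 427877 in High, against 54041 in Low, 4371 in Sublow and 642 in Negative. The sum of 5 tuft cell markers was likewise highest in High (92071, against 11047 in Low). Paneth cell and enterocyte marker sums were highest in Negative (41006 and 472452, against 15927 and 18120.1 in Low). The part of these markers in the results on mitosis genes was not tested. Nothing in the labels says that the 3 libraries of a gate came from separate mice, so the p-values measure the spread between these libraries only. In RNA from 12000 pooled cells, fewer dividing cells and less RNA of these genes per cell cannot be told apart.

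The promoters of the members shared motifs that the choice of the list did not use. RefSeq promoter windows (GRCm38.p6, 250 bases before to 50 after the start of the transcript) matched 33 of 41 members in 34 windows, since Prc1 has 2 overlapping ones. Ccna2, Cdc25c, Foxm1, Aurkb, Incenp, Kif20a, Tpx2 and Smc4 had no entry. The core of the cell cycle genes homology region, TTTGAA, was present on either strand in 27 of 34 windows (79.4%), against 17.9% of 32851 windows of all genes and 12.6% of 14862 windows of the genes tested here. A match near the start was also common among the members: 25 of 34 windows (73.5%) had a match within 50 bases of the start, against 3.20% of the windows of tested genes. The related form TTTAAA occurred in 9 windows (26.5%, against 9.61% of the windows of tested genes), and the NF-Y box core CCAAT in 26 (76.5%, against 37.6%). A GC box, GGGCGG, which is common in promoters with CpG islands, was searched for comparison and was present in 29 windows (85.3%, against 57.8%). TTTGAA or TTTAAA together with CCAAT was found in 25 windows (73.5%), against 8.01% of the windows of tested genes. Each motif was counted on its own, also where matches of different motifs share letters at their ends, and a match is a description of the sequence.

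TTTGAA and CCAAT both lay in the last 100 bases before the start in 7 windows. Of these, 4 with at most 30 bases inside an annotated exon are printed as examples. The capitals mark TTTGAA and CCAAT, or their reverse complements TTCAAA and ATTGG. All are written 5′ to 3′ on the strand of the gene and end at the base before the start. Cdc20 is the coactivator of the APC/C (chr4:118437344-118437443, minus strand), Cdk1 the kinase of mitotic entry (chr10:69352913-69353012, minus strand), Top2a the topoisomerase that untangles sister chromatids (chr11:99024190-99024289, minus strand) and Kif11 the motor that separates the spindle poles (chr19:37376282-37376381, plus strand).
Cdc20: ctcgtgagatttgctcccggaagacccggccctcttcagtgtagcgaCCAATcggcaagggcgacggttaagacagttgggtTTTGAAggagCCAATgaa
Cdk1: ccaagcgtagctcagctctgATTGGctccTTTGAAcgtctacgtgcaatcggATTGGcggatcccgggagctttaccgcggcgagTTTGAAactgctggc
Top2a: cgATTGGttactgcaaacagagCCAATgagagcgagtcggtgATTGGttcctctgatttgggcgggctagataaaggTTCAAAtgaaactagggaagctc
Kif11: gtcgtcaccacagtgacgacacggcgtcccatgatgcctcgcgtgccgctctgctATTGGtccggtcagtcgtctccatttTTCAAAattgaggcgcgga
In these windows the homology region core nearest the start had its first base at position -18 in Cdc20, -15 in Cdk1, -23 in Top2a and -19 in Kif11, counted from the RefSeq start. CCAAT lay upstream of it in each of the 4, and Cdc20 had a further CCAAT at -8. The printed windows were chosen for motifs before the start, so their positions do not describe the members as a whole. In other members the core nearest the start lay after it, as in Cenpf at 3, Ccnb2 at 5, Plk1 at 31 and Bub1b at 41. In others again it lay before the start, as in Espl1 at -27.

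**Figure D1:**
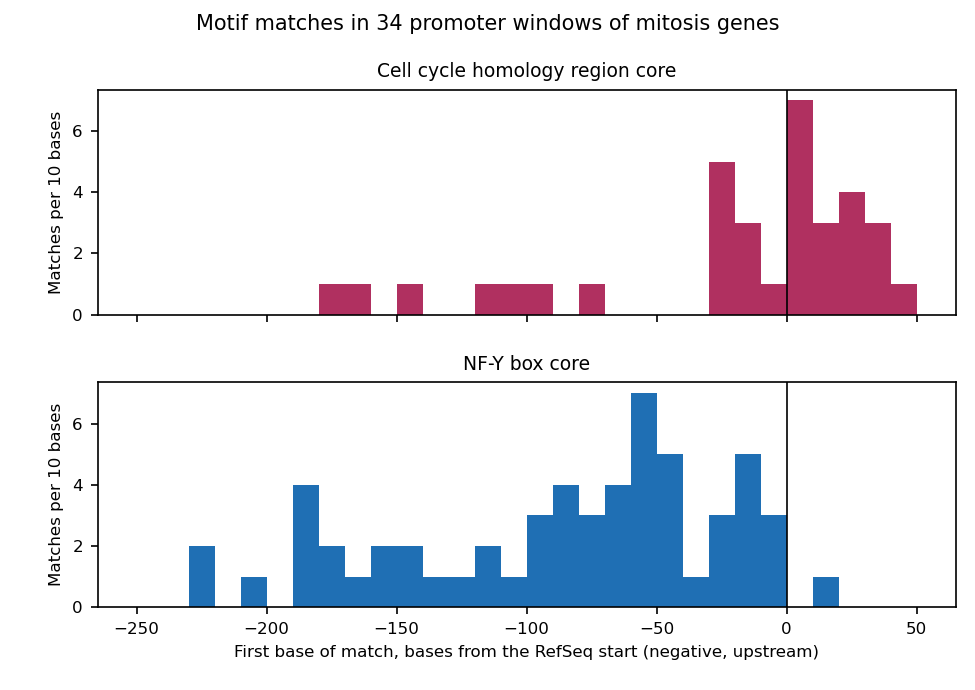
Number of matches per 10 bases along the 34 promoter windows of mitosis genes, by distance from the RefSeq start (negative, upstream), for the cell cycle homology region core (top) and the NF-Y box core (bottom). Matches of the homology region core gather around the start (25 of 34 windows hold one within 50 bases of it).

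Messenger RNA of the mitosis genes was high in the Low and Sublow gates and low in the High and Negative gates. The limma F-test over the 4 populations called 41 of 41 members at an adjusted p below 0.05 (adjusted p 1.82e-06 to 9.71e-05), against 69.5% of all genes tested. Together the members took 0.618% ± 0.0193 (SD, n = 3) of the reads in Low, 0.401% ± 0.126 in Sublow, 0.0835% ± 0.0485 in Negative and 0.0626% ± 0.0175 in High. Relative to its own mean in Low, a member stood at a median of 79.0% in Sublow (66.1% for Ttk to 106% for Plk1), 19.3% in Negative (9.04% for Ttk to 35.8% for Hmmr) and 10.3% in High (6.22% for Ttk to 31.1% for Cenpa). In High, 37 of 41 members were below 20% of their Low mean, and in Negative 24 of 41.

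**Figure D2:**
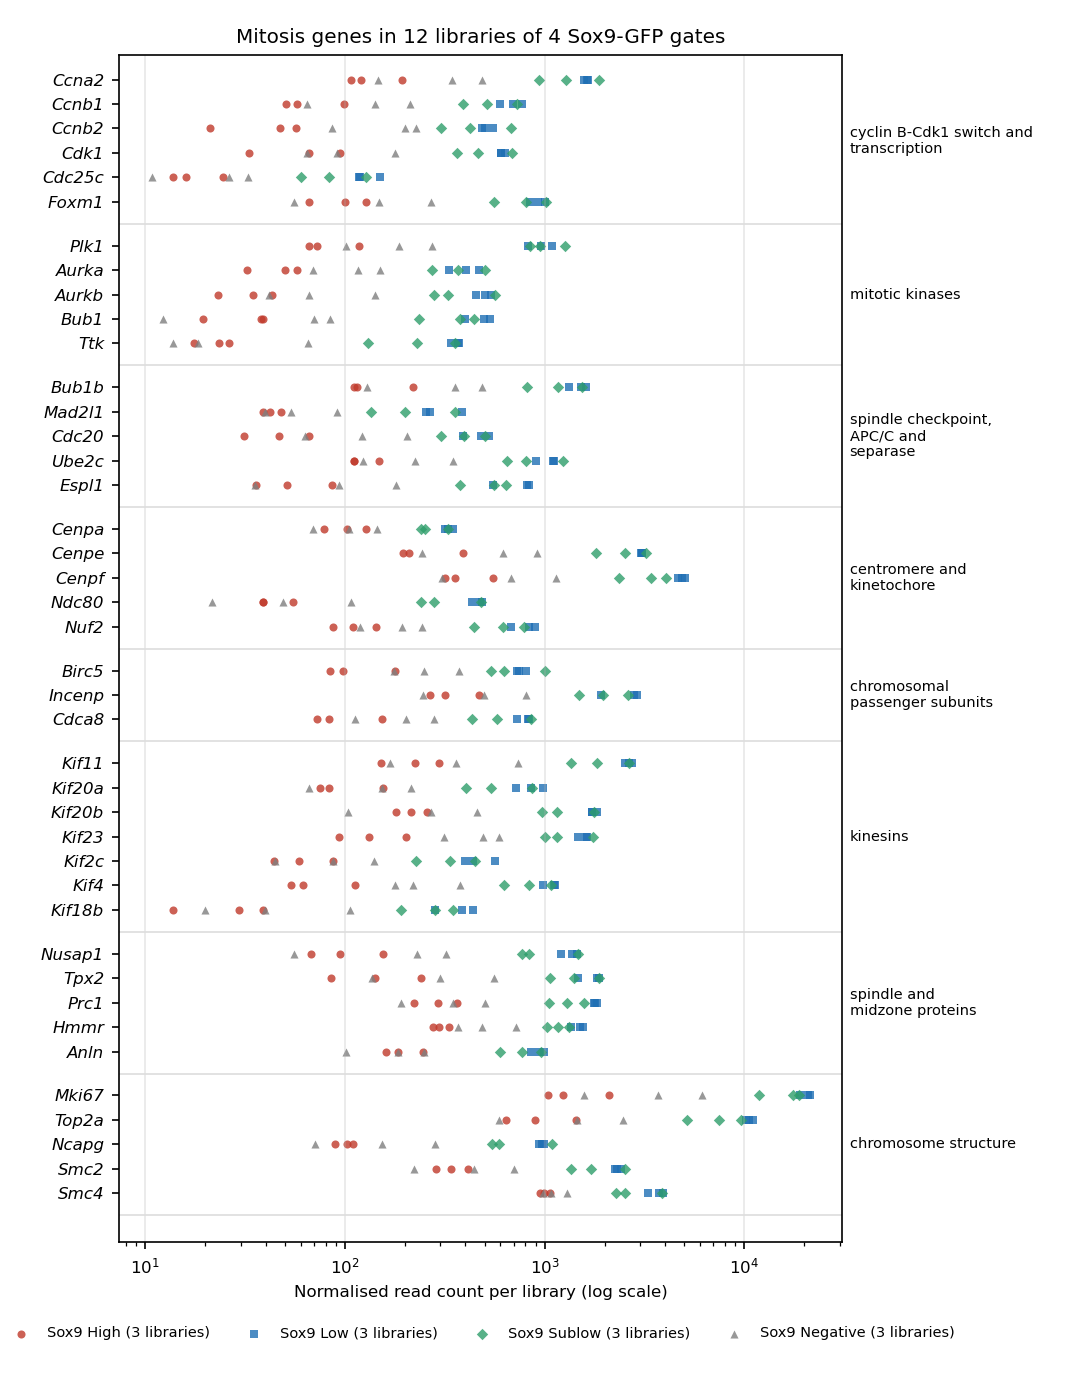
Normalised read count of each of the 41 mitosis genes in each of the 12 libraries (log axis), grouped by role; a point is 1 library, and symbol and colour give the gate. For every gene the 3 Low squares lie to the right of all High circles and all Negative triangles, and the Sublow diamonds lie near the Low squares.

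The levels differed widely among members even per length. Scaled to merged exon length (GENCODE M21, in kilobases), Mki67 had the highest mean level in Low at 2018 normalised reads per kb, followed by Top2a at 1172, Smc4 at 699, Incenp at 587 and Plk1 at 437. Cdc25c was lowest at 26.1 per kb, with Mad2l1 next at 36.1. Merged length covers the exons of all annotated transcripts (8390 bases for Mad2l1). It can exceed the length of the transcript in use, which lowers the level per kb. Exons of 10 members overlap those of another gene in the table, most of all Kif20a (29.3% of its exon length, with Cdc23), Ube2c (22.8%, with Tnnc2) and Kif4 (15.1%, with Pdzd11). The sources used here do not say whether reads were counted by strand, so reads of these pairs may not be separated. Ccnb1, Ccnb2 and Kif4 also have a pseudogene listed as its own symbol, and their values are uncertain to the extent that reads were split with it.

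Against Low, the High gate was lower for 41 of 41 members (limma, adjusted p 3.83e-06 to 0.000279), where 19.3% of all genes tested were called lower and 42.9% in either direction. The median log2 difference of the members, on the scale of log2(normalised read count + 1), was -3.35, and that of all genes was 0.10, with 44.8% of all genes below 0. In the Negative gate 41 of 41 were likewise lower than in Low (adjusted p 1.49e-05 to 0.00426, median -2.49), where 30.3% of all genes were called lower and 57.2% in either direction. The median of all genes was -0.05 there, with 52.1% of all genes below 0. High was lower than Sublow for 41 of 41 (adjusted p 2.21e-06 to 0.000678, a median change of -87.5%), against 25.3% of all genes called lower, 52% called in either direction and 48.9% with a difference below 0. Sublow was higher than Negative for 41 of 41 (adjusted p 0.00112 to 0.0237, median 2.14), against 15.1% of all genes called higher and 27.7% in either direction, with 52.8% of all genes below 0. In these 4 comparisons the libraries of the 2 gates did not overlap for any of the 41 members. In the same direction, 26.4% of all genes were separated in High against Low, 35% in Negative against Low (31.5% in the other direction), 28% in High against Sublow and 18.9% in Sublow against Negative. The comparisons share libraries and are not independent of each other.

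The call of Sublow over Negative rested on the spread shared across all 12 libraries. When the 6 libraries of that comparison were fitted alone, without a replicate block, 0 of 41 members passed (limma adjusted p 0.0507 to 0.0872). Of all 16577 genes 46 passed, against 4597 in the fit of all 12. Without Sublow A, Sublow C or Negative B, 40 of 41 were called, the exception being Ccnb2 (adjusted p 0.0558, 0.0934 and 0.0993).

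**Figure D3:**
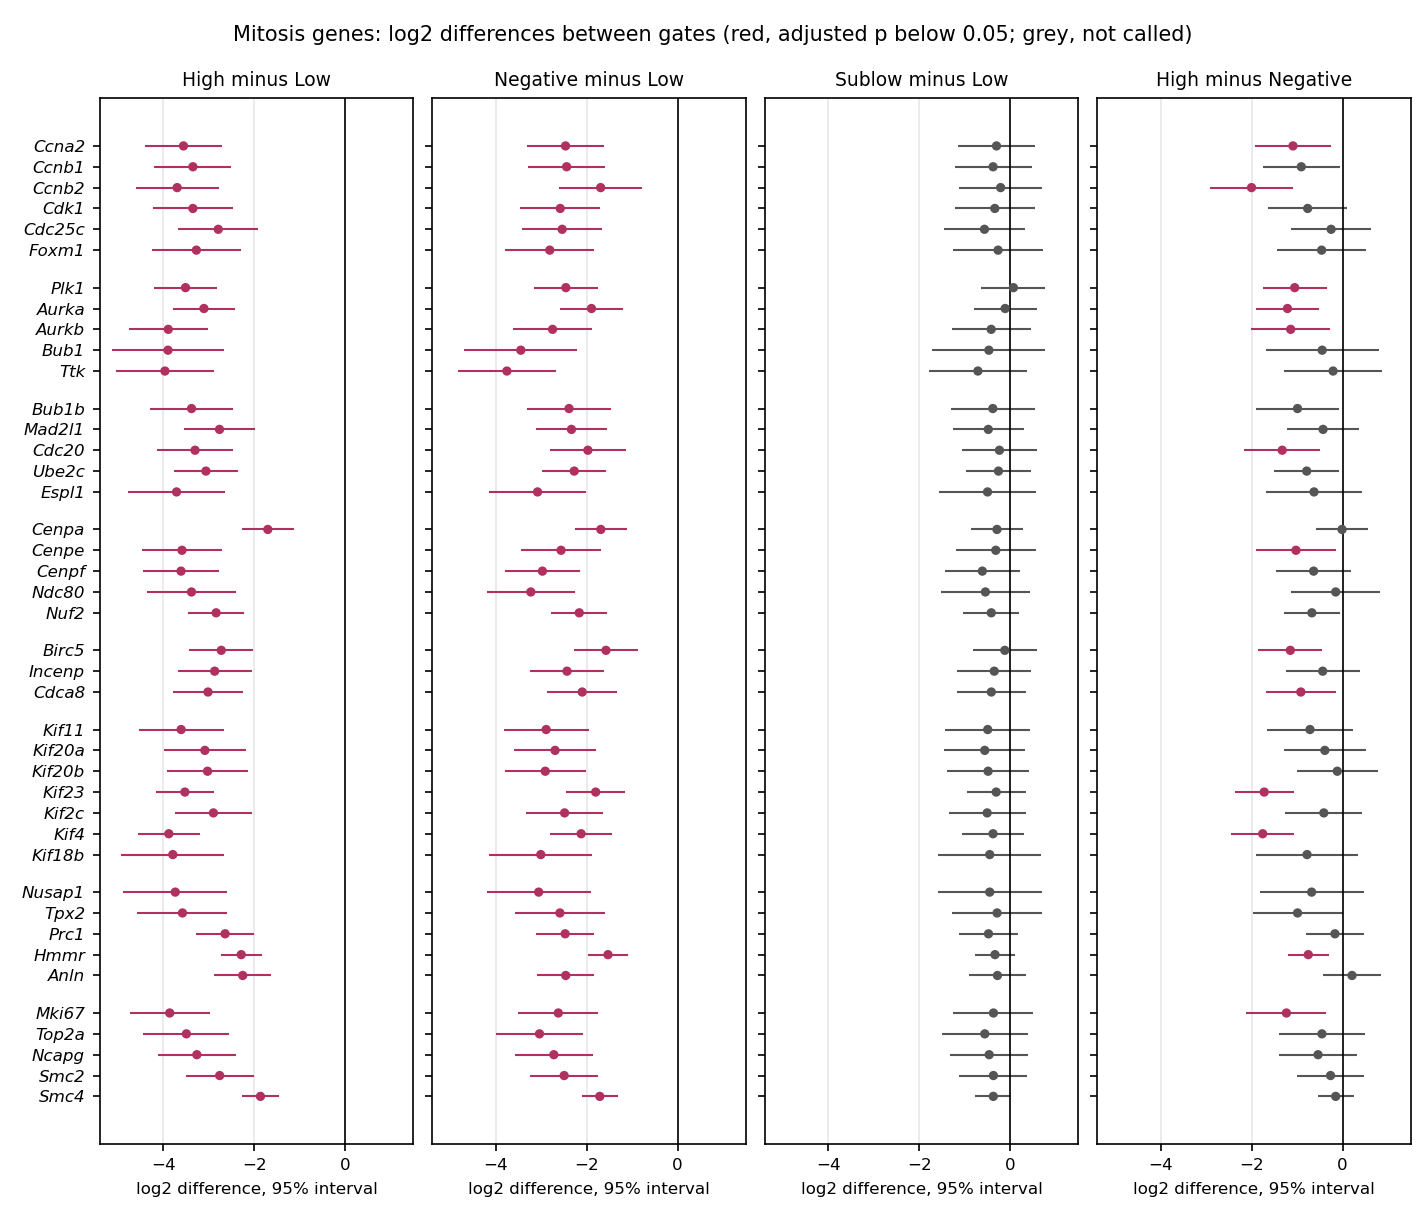
log2 difference of each mitosis gene between gates with its 95% interval from the limma fit, 1 panel per comparison; red points have an adjusted p below 0.05 and grey points do not. The 4 panels show 41 red points in High minus Low, 41 in Negative minus Low, 0 in Sublow minus Low and 13 in High minus Negative.

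The switch into mitosis and its transcription comprised Ccna2, Ccnb1, Ccnb2, Cdk1, Cdc25c and Foxm1. Ccna2, the cyclin of S phase and G2, had 1644, 1622 and 1567 normalised reads in Low A, B and C, 1276, 936 and 1877 in Sublow, 488, 146 and 343 in Negative, and 194, 107 and 121 in High. Every Low and Sublow library was above every Negative and High library, and the High range reached into the Negative range. The log2 difference of Ccna2 from Low was -3.56 ± 0.39 (SE, limma adjusted p = 2.44e-05) in High and -2.47 ± 0.39 in Negative (adjusted p = 0.000173). Ccnb2, a B-type cyclin, had 501, 487 and 551 in Low, 423, 303 and 679 in Sublow, 226, 86.1 and 201 in Negative, and 56.8, 21.2 and 47.3 in High. Here the High and Negative libraries were apart, with every Negative library above every High library. Its log2 difference was -3.70 ± 0.42 in High against Low (adjusted p = 3.49e-05) and -1.69 ± 0.42 in Negative against Low (adjusted p = 0.00426). The other 4, Ccnb1, the kinase Cdk1, the phosphatase Cdc25c that activates it and the transcription factor Foxm1, lay between -3.35 and -2.79 in High against Low and between -2.81 and -2.44 in Negative against Low.

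Among the mitotic kinases Plk1, Aurka, Aurkb, Bub1 and Ttk, Plk1 was the most abundant and Ttk had the largest differences from Low. Plk1, which acts from centrosome maturation to cytokinesis, had 964, 1090.2 and 828 normalised reads in Low, 949, 841 and 1269.8 in Sublow, 272, 101 and 186 in Negative, and 117, 66.3 and 72.6 in High. It was the only member with a higher mean in Sublow than in Low, and the libraries of these gates overlapped. Its largest difference was that of High from Sublow (-3.59 ± 0.32, adjusted p = 2.21e-06). Ttk, the checkpoint kinase also called Mps1, had 373, 340.0 and 368 in Low, 229, 131 and 354 in Sublow, 65.5, 18.5 and 13.7 in Negative, and 23.5, 17.5 and 26.2 in High. Of the 41 members it had the largest difference from Low in both gates, -3.97 ± 0.49 in High (adjusted p = 6.14e-05) and -3.76 ± 0.49 in Negative (adjusted p = 5.16e-05). Aurora A (Aurka), Aurora B (Aurkb) and the kinetochore kinase Bub1 lay between -3.90 and -3.11 in High against Low and between -3.45 and -1.90 in Negative against Low.

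The spindle checkpoint, APC/C and separase group held Bub1b, Mad2l1, Cdc20, Ube2c and Espl1. Bub1b, which encodes the checkpoint protein BubR1, had 1619, 1518 and 1320.2 normalised reads in Low, 1165, 817 and 1544 in Sublow, 487, 129 and 355 in Negative, and 219, 115 and 112 in High. Its difference from Low was -3.38 ± 0.42 in High (adjusted p = 6.54e-05) and -2.39 ± 0.42 in Negative (adjusted p = 0.000417). Cdc20, whose promoter is printed above, had 528, 478 and 388 in Low, 395, 303 and 502 in Sublow, 205, 63.1 and 122 in Negative, and 65.9, 31.3 and 46.5 in High. The checkpoint protein gene Mad2l1, the ubiquitin-conjugating enzyme gene Ube2c of the APC/C and the separase gene Espl1 lay between -3.71 and -2.77 in High against Low. In Negative against Low the whole group lay between -3.08 for Espl1 and -1.98 for Cdc20.

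The centromere and kinetochore members were Cenpa, Cenpe, Cenpf, Ndc80 and Nuf2. Cenpf, a large kinetochore protein of G2 and mitosis, had 5058, 4897 and 4660.4 normalised reads in Low, 3403, 2353 and 4040.4 in Sublow, 1140.5, 306 and 677 in Negative, and 552, 358 and 318 in High. It fell by 3.61 on the log2 scale in High against Low (-3.61 ± 0.38, adjusted p = 2.07e-05). Cenpa, the centromeric histone H3 variant, had 347, 319 and 326 in Low, 241, 250.4 and 328 in Sublow, 145, 69.2 and 105 in Negative, and 128, 78.3 and 102 in High. Cenpa had the smallest difference of the 41 in High against Low (-1.70 ± 0.26, adjusted p = 0.000279) and in High against Sublow (-1.41 ± 0.26, adjusted p = 0.000678), and its High and Negative libraries interleaved. The kinetochore motor Cenpe and the Ndc80 complex subunits Ndc80 and Nuf2, which bind microtubules, lay between -3.59 and -2.84 in High against Low and between -3.23 and -2.16 in Negative against Low.

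The chromosomal passenger subunits Birc5 (survivin), Incenp and Cdca8 (borealin), which place and activate Aurora B, were less reduced than Aurkb itself in both gates by their point estimates, a difference between genes that was not tested. Incenp had 2892, 2804 and 1922 normalised reads in Low, 1954, 1478 and 2612 in Sublow, 809, 245 and 496 in Negative, and 469, 315 and 267 in High. Its differences from Low were -2.87 ± 0.38 in High (adjusted p = 9.05e-05) and -2.43 ± 0.38 in Negative (adjusted p = 0.00016). Birc5 stood at -2.73 in High and -1.58 in Negative, and Cdca8 at -3.02 and -2.10, while Aurkb stood at -3.89 and -2.75.

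All 7 kinesins fell in both gates: Kif11, Kif20a, Kif20b, Kif23, Kif2c, Kif4 and Kif18b. Kif11, whose promoter is printed above, had 2533, 2638 and 2751 normalised reads in Low, 1832, 1362 and 2642 in Sublow, 733, 168 and 362 in Negative, and 296, 151 and 223 in High. It stood at -3.61 ± 0.43 in High against Low (adjusted p = 4.71e-05) and -2.89 ± 0.43 in Negative against Low (adjusted p = 0.000123). Kif4, a chromosome-bound motor that also works at the midzone, had 1118, 1124 and 985 in Low, 839, 625 and 1078 in Sublow, 377, 178 and 220.2 in Negative, and 113, 53.4 and 61.7 in High. Kif23, the centralspindlin motor of cytokinesis, had 1632, 1607 and 1472 in Low, 1153, 1008 and 1755 in Sublow, 588, 312 and 492 in Negative, and 201, 93.1 and 132 in High. For both Kif4 and Kif23 all Negative libraries were above all High libraries. The microtubule-depolymerising Kif2c and the other kinesins, Kif20a, Kif20b and Kif18b, lay between -3.79 and -2.90 in High against Low.

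Spindle and midzone proteins were Nusap1, Tpx2, Prc1, Hmmr and Anln. Prc1, which bundles antiparallel microtubules of the midzone, had 1766, 1793 and 1820.2 normalised reads in Low, 1298, 1054 and 1565 in Sublow, 503, 191 and 347 in Negative, and 363, 222 and 291 in High. Its differences from Low were close in size in both gates (-2.64 ± 0.29 in High, adjusted p = 3.03e-05, and -2.48 ± 0.29 in Negative, adjusted p = 2.79e-05). Hmmr, a spindle-associated hyaluronan receptor, had 1496, 1559 and 1355 in Low, 1171, 1026 and 1317 in Sublow, 722, 369 and 487 in Negative, and 332, 275 and 296 in High. Hmmr had the smallest difference of the 41 in Negative against Low (-1.53 ± 0.21, adjusted p = 6.21e-05) and in Sublow against Negative (1.20 ± 0.21, adjusted p = 0.00349). The spindle proteins Nusap1 and Tpx2 lay at -3.74 and -3.58 in High against Low, and the cytokinetic scaffold Anln (anillin) at -2.25.

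Chromosome structure was represented by Mki67, Top2a, Ncapg, Smc2 and Smc4. Mki67, the source of the Ki-67 proliferation antigen, had 20750.1, 21201 and 18958 normalised reads in Low, 17530.0, 11832 and 18764 in Sublow, 6131, 1572 and 3679 in Negative, and 2101, 1040.3 and 1242 in High. Its differences from Low were -3.86 ± 0.40 in High (adjusted p = 1.94e-05) and -2.63 ± 0.40 in Negative (adjusted p = 0.000156). Top2a, whose promoter is printed above, stood at -3.49 in High and -3.04 in Negative. The condensin subunits fell by different amounts, a difference between genes that was not tested: the condensin I subunit Ncapg stood at -3.26 in High and -2.72 in Negative, while Smc4, shared by both condensins, stood at -1.86 and -1.71 and kept 27.4% and 30.6% of its Low mean. Smc2, the partner of Smc4, lay between them at -2.76 and -2.50.

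Sublow was not distinguished from Low by any member. By limma 0 of 41 were called, and 0 had an unadjusted p below 0.05, where 24% of all genes were called in either direction (10.7% lower and 13.3% higher). edgeR's quasi-likelihood test and DESeq2 on the recovered read counts also called 0 of 41. The median log2 difference was -0.38, and 40 of 41 members were below 0, as were 54.5% of all genes. The median of the members' 95% intervals ran from -1.22 to 0.44, so a fall to less than 50% of the Low level was inside the interval for most members, and a test that misses the threshold does not show equal levels. The largest difference was that of Ttk (-0.71 ± 0.49, adjusted p = 0.333) and the smallest that of Plk1 (0.07 ± 0.32, adjusted p = 0.90). The libraries of the 2 gates were apart for 5 members, Cenpf, Prc1, Hmmr, Mki67 and Top2a, all lower in Sublow, where 18.7% of all genes were separated in that direction and 18.3% in the other. Without Sublow C, 1 member passed, the condensin subunit Smc4 (adjusted p = 0.00678).

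The 3 Sublow libraries were spread in a common order. Sublow C had the highest level of the gate for 41 of 41 members and Sublow B the lowest for 40 of 41. The members' median log2 distance from the Low mean was 0.06 in Sublow C, -0.40 in Sublow A and -0.78 in Sublow B. The summed level of 5 active stem cell markers, among them Lgr5 and Olfm4, followed the same order with 33787 normalised reads in C, 16021 in A and 7303 in B. Olfm4 was the largest part of this sum in every gate, with means of 60843 in Low, 15675 in Sublow, 3865 in High and 1741 in Negative. Lgr5 had a mean of 299.6 in Sublow. The order of the sum therefore reflects mostly Olfm4 and does not show that each of the 5 markers followed it. The summed level of 6 enterocyte markers ran the other way, with 54909 in C, 164536 in A and 316990 in B. These marker sums move with the members within 1 gate, and their part in the result was not tested.

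A common order was also present in the Negative gate. Negative A was highest for 41 of 41 members and Negative B lowest for 40 of 41, with medians of -1.73 in A, -2.37 in C and -3.38 in B. The stem cell marker sum was 5150.1 in A, 2525 in C and 1333 in B, and the enterocyte marker sum was 386581 in A, 446808 in C and 583968 in B. In High, replicate A was highest for 38 members and replicate B lowest for 35, at medians of -2.84 in A, -3.41 in C and -3.72 in B, beside stem cell marker sums of 9379, 6149 and 4024. Low libraries were close together, with medians of 0.06, 0.02 and -0.10 in A, B and C, and with stem cell marker sums between 60443 and 79714. The order of the letters was the same in High and Negative, A above C above B, and B was also lowest in Sublow, where C stood above A. The share of the markers in these orders was not tested.

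**Figure D4:**
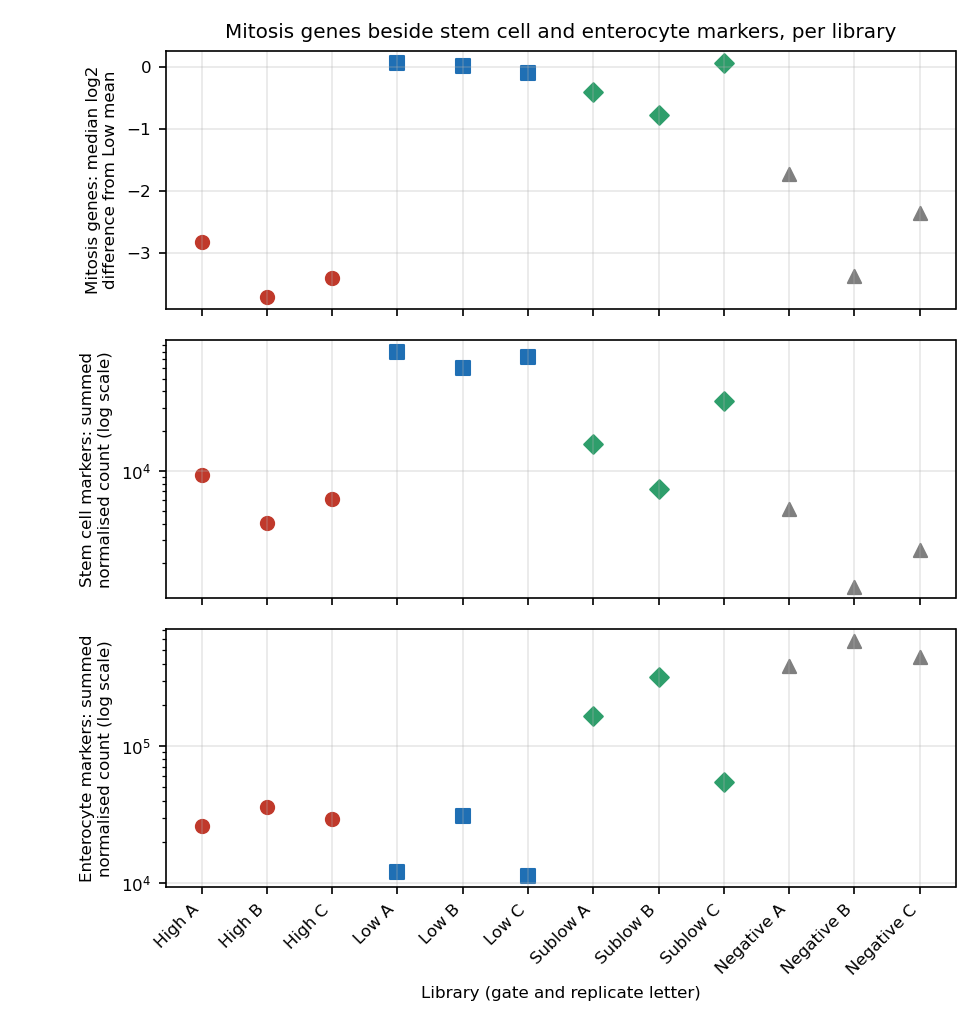
For each of the 12 libraries, the members' median log2 distance from the Low mean and the summed normalised read counts of the active stem cell and the enterocyte markers. By gate mean, Olfm4 is the largest part of the stem cell sum. Within Sublow and within Negative the library with the highest mitosis genes also has the highest stem cell sum and the lowest enterocyte sum (Sublow C and Negative A).

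High and Negative, the gates with low levels, differed for some members. By limma 13 of 41 were lower in High and 0 were higher, where 25.8% of all genes were called lower, 28.8% higher and 54.6% in either direction. Over both directions the members were thus called less often than all genes. The median log2 difference of the members was -0.68 (all genes 0.03, with 49% of them below 0), and the members ranged from -2.00 for Ccnb2 to 0.21 for Anln. The libraries were apart for 5 members, Ccnb2, Aurka, Kif23, Kif4 and Hmmr, all lower in High. That is a smaller share than the 30.8% of all genes separated in that direction. The count depended on single libraries: it was 7 without High B, without High C or without Negative A, and 30 without Negative B, the library with the lowest mitosis genes of its gate. Scaled to the same total per library it was 3, and that scaling also moved the median of all genes from 0.03 to 0.50. With quantile scaling it was 24.

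Ccnb2, Kif23 and Kif4 were called in each of the 24 alternative settings. Ccnb2 stood at -2.00 ± 0.42 (adjusted p = 0.00137, 0.0124 at most over the alternatives), which is a 4.01-fold lower level in High. Kif4 followed at -1.76 ± 0.32 (adjusted p = 0.000423, at most 0.0074) and Kif23 at -1.72 ± 0.30 (adjusted p = 0.000305, at most 0.00605). The mitotic kinase gene Aurka had 57.7, 32.3 and 49.8 normalised reads in High A, B and C and 149, 69.2 and 116 in Negative, without overlap. Birc5 had between 83.9 and 178 in High and between 175 and 373 in Negative, with High A just above Negative B. Aurka (-1.21, limma adjusted p = 0.00591), Cdc20 (-1.33, 0.0105), Birc5 (-1.15, 0.0094) and Hmmr (-0.75, 0.00765) were called in 23 of 24 alternatives each. Plk1, Mki67, Aurkb and Ccna2 lay between -1.24 and -1.05 and were lost without High B, High C or Negative A, and Mki67 and Ccna2 also without Negative C. Cdca8 (-0.92, adjusted p = 0.042) and Cenpe (-1.03, 0.049) were close to the threshold and were lost without High B, High C, Negative A, Negative C, Sublow A or any 1 of the Low libraries.

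The remaining 28 members did not pass in this comparison. Anln, the only member with a positive difference, had 184, 160.3 and 245 normalised reads in High and 249, 101 and 185 in Negative (0.21 ± 0.29, adjusted p = 0.571), and its difference was -0.14 with quantile scaling and -0.15 without Negative B. The smallest difference was that of Cenpa (-0.012, 95% interval -0.58 to 0.56, adjusted p = 0.974). Its sign, like that of Ttk, Incenp, Prc1 and other members that did not pass, changed in at least 1 alternative, with no call in either direction.

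Genes of mitosis outside the 41 gave a mixed picture. From 9 lists with 160 tested genes, 99 were lower and 9 higher in High than in Low. Their median was -0.94 against -3.35 for the members. Of all genes tested, 19.3% were called lower and 23.6% higher there, also the measure for each list below. In Negative against Low 114 were lower and 15 higher (median -1.20), where 30.3% of all genes were called lower and 26.8% higher. In Sublow against Low 6 were lower and 5 higher (median -0.32). Both are smaller shares than among all genes, of which 10.7% were called lower and 13.3% higher. These counts move with the scaling: with equal totals they became 138 lower and 3 higher in Negative, and 29 lower and 1 higher in Sublow. Among all 16577 genes, 23.3% of 10490 calls were then higher in Negative, and 28.6% of 4569 calls in Sublow. In High against Negative 39 were lower and 27 higher. Neither share was above that of all genes, of which 25.8% were called lower and 28.8% higher. With equal totals 8 were lower and 55 higher, where 74.1% of 10011 calls among all genes were higher. In High against Low, 15 of 20 outer kinetochore and checkpoint genes were lower (median -2.43, led by Kntc1 at -3.98 and Knl1 at -3.42), as were 5 of 7 further kinesins (median -2.74, led by Kif15 at -3.59 and Kifc1 at -3.27), and 12 of 19 G2/M switch genes (median -2.36, led by Pbk at -3.74 and Melk at -3.69). Of 20 inner kinetochore genes 16 were lower (median -1.34, among them Cenpm at -3.62), of 21 condensin and cohesin genes 15 (median -0.92, led by Ncaph at -3.93 and Sgo2a at -3.32), and of 22 centrosome and spindle genes 15 (median -1.82, led by Stil at -3.81 and Ckap2l at -3.65). Of 20 MuvB, B-Myb and E2F factors, whose action on the members was not tested, 11 were lower (median -0.55). They were led by E2f8 at -3.85 and the B-Myb gene Mybl2 at -2.74.

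Core subunits of the APC/C, a complex that resting cells also use, were mostly not called in High against Low. Of 17 APC/C subunits and coactivators, 3 were lower and 1, Anapc16, higher in High than in Low (median -0.24). Of all genes, 19.3% were called lower and 23.6% higher there. In Negative against Low 10 of the 17 were lower and 1 higher (median -0.47), where 30.3% of all genes were called lower and 26.8% higher. The coactivator Cdc20 and the conjugating enzyme Ube2c, which are members, stood in High at 10.3% and 11.9% of Low. Anapc16 (0.46, adjusted p = 0.0147) was lost with equal totals (adjusted p = 0.0587). Bub3, a WD-repeat protein of the checkpoint, was 0.79 higher in High than in Low (adjusted p = 0.0227, 0.0527 with equal totals), 1.42 lower in Negative than in Low (difference -1.42, adjusted p = 0.000387) and 2.21 higher in High than in Negative (adjusted p = 8.98e-06). The mean level of Bub3 was 1101 in High and 639 in Low, and it was 394 in Sublow and 234 in Negative. Zwint, a kinetochore protein, was also higher in High than in Negative (1.68, adjusted p = 1.02e-05). The motor subunit Kif3b (0.88), the cohesin loader subunit Mau2 (0.57), the centromere protein Cenpb (0.59) and the centriole protein Cenpj (0.67) were also higher in High than in Low.

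Of 14 cytokinesis genes, 6 were higher and 6 lower in Negative than in Low, where 26.8% of all genes were called higher and 30.3% lower. Those higher included the septin Sept9 (1.32 ± 0.18, adjusted p = 6.28e-05) and the membrane-scission subunit Chmp4b (1.06 ± 0.20, adjusted p = 0.000559), both called under equal totals as well. In Sublow against Low, Sept9 (0.82, adjusted p = 0.00633) and Chmp4b (0.66, adjusted p = 0.0281) were higher too, the latter with an adjusted p of 0.115 under equal totals. E2f2, an E2F activator, was higher in Sublow than in Low (0.88 ± 0.21, adjusted p = 0.0108, 0.0687 under equal totals). None of the 41 members was called higher in these comparisons against Low.

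**Figure D5:**
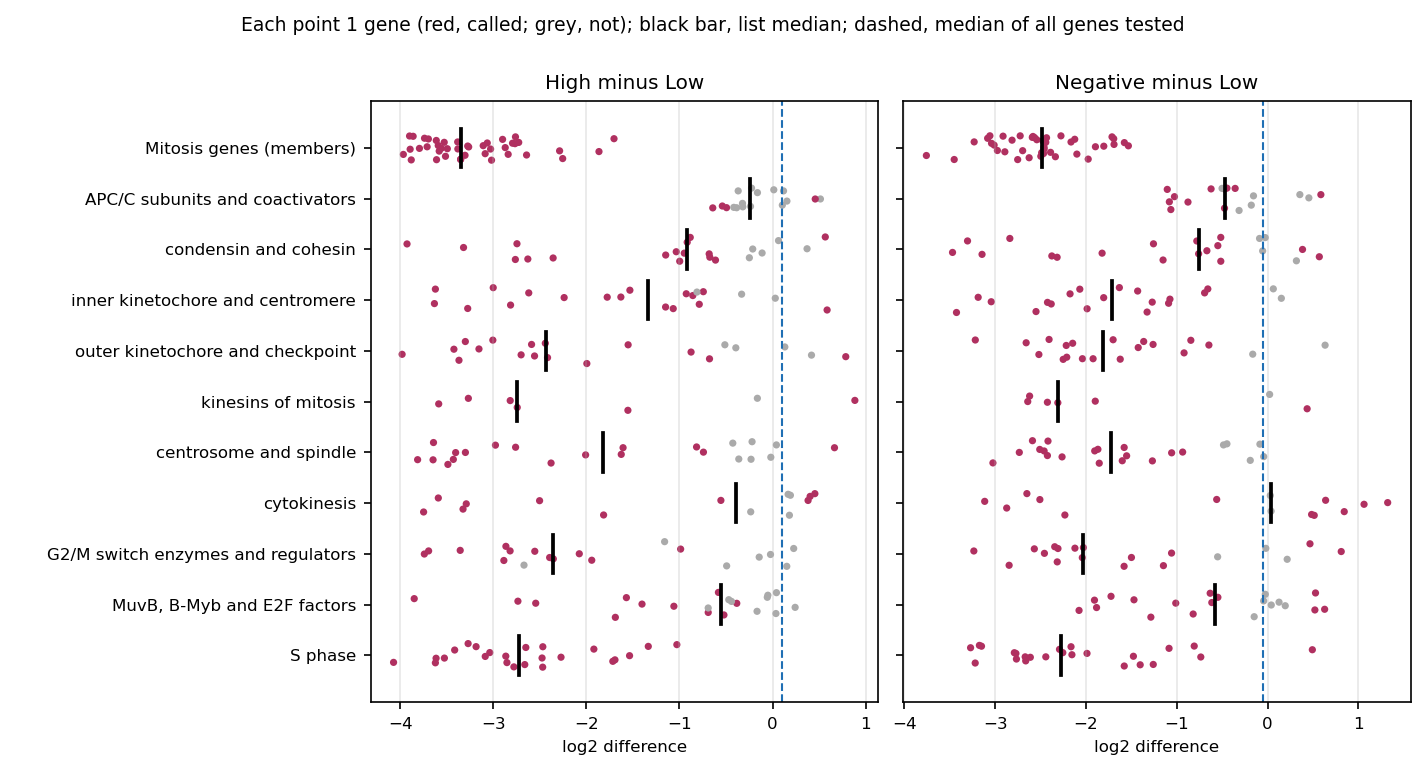
log2 differences of the mitosis genes and of the other lists, 1 point per gene (red, adjusted p below 0.05; grey, not called), with the list median as a black bar and the median of all genes tested as a dashed line, for High minus Low and Negative minus Low. The mitosis genes lie together far below 0 in the comparisons of High and of Negative with Low. The APC/C subunits have a median of -0.24 in High minus Low and -0.47 in Negative minus Low, where 10 of 17 are called lower.

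Genes of DNA replication followed the same gates. Of 24 S phase genes, among them the Mcm2 to Mcm7 helicase subunits and Pcna, 24 were lower in High than in Low (median -2.72, Mcm3 -4.07 to Gins4 -1.03) and 23 were lower in Negative than in Low (median -2.27). Sublow against Low called 0 of 24, where 24% of all genes were called in either direction. Of all genes, 19.3% were called lower in High and 30.3% in Negative, each against Low. The summed level of the members divided by that of the S phase genes was 3.31 ± 0.321 (SD, n = 3) in Low, 3.51 ± 0.465 in Sublow, 2.34 ± 0.594 in Negative and 2.09 ± 0.271 in High. The ratio was between 3.04 and 3.97 in each Low and Sublow library and between 1.68 and 2.83 in each Negative and High library, so these pairs of gates did not overlap. No test was made of the ratio.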

How the data were processed

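Per the labels' protocols, libraries were made from 12000 sorted cells with ribosomal RNA depleted. The authors deposited 1 table of normalised read counts, a signal per gene symbol and library. The sources used here do not name the aligner, counting program, annotation or build. Dividing each library by its smallest value above 0 gave whole numbers (tolerance 0.01) for 100% of values, which were used as recovered read counts.

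Values were tested as log2(value + 1) with limma 3.58.1 (R 4.3.3, trend, all 12 libraries together, 4.10 prior degrees of freedom), keeping genes with at least 10 units in at least 3 libraries (16577), with Benjamini-Hochberg adjustment over these and a threshold of 0.05. The scripts were tested on simulated data. Alternatives were edgeR 4.0.16 and DESeq2 1.42.0 on the recovered counts, which called between 3995 and 9677 genes per comparison, other pseudocounts, filters and scalings, and left-out libraries. Library weights and a fit without letter B were added after seeing the data. Members and lists were chosen with earlier results of these data known. Values in all 12 libraries are given for the member of each role with the highest mean, Mki67, and the members with the largest and smallest absolute difference in each comparison; a member whose call or direction differs from most is named with its values. In each other list, up to 2 called genes with the largest rise, 2 with the largest fall, and any called against the direction of most may be named. Promoter windows came from RefSeq, exon lengths from GENCODE M21 (GRCm38). Results for some genes are not reported here.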

Additional observations from a re-analysis of the deposited data

How the results depend on the processing

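The members were lower in High than in Low, in Negative than in Low and in High than in Sublow in 41 of 41 cases under each of the 24 alternatives, and no member's call reversed in any comparison. In Sublow against Low the count of 0 became 1 (Smc4) when scaled to the same total, 1 (Smc4) with quantile scaling and 3 (Hmmr, Ncapg and Smc4) with library weights, and 0 to 1 when 1 library was left out. In High against Negative the count of 13 became 3 when scaled to the same total, 24 with quantile scaling and 24 without the 4 libraries of letter B, and 7 to 30 when 1 library was left out. Sublow against Negative fell from 41 to 0 with the 6 libraries alone and stayed between 40 and 41 with 1 library left out. The causes were not tested.

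Scaling to the same total moved the median of all genes in Negative against Low from -0.05 to -0.60, in Sublow against Low from -0.06 to -0.33, in Sublow against Negative from -0.04 to 0.23 and in High against Sublow from 0.03 to 0.22. The share of calls that were higher moved from 46.9% to 23.3%, from 55.3% to 28.6%, from 54.4% to 86.3% and from 51.3% to 63.2% in these comparisons, and from 52.8% to 74.1% in High against Negative. In Sublow against Negative it was 64.6% with quantile scaling and 67.2% with edgeR. Relative to all genes, the members' median in Negative against Low was -2.43 before and -2.44 after.

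Letters were not treated as pairs: the 18 pairs of libraries with the same letter had correlations of 0.0521 to 0.341 after removal of the gate means, with the lowest under 0.1, although 12 of 12 libraries correlated best with their own letter. The mean correlation was 0.156 for the same letter and -0.0781 for different letters. With a replicate block the members called numbered 41 in High against Low, 0 in Sublow against Low, 41 in Negative against Low, 19 in High against Negative, 41 in Sublow against Negative and 41 in High against Sublow. The number of libraries, 3 per gate, limits the precision in the Sublow and Negative gates, whose libraries spread most.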
